A study of Mus musculus with 8 samples.

Results

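The 10 imprinted growth genes Igf2, Dlk1, Peg3, Mest, Plagl1, H19, Igf2r, Meg3, Cdkn1c and Grb10 were read out in S0 cells of the mouse fetal liver. They were picked by symbol from the 52636 gene identifiers of the count table. No cut on measured values was used, but earlier results of these data were known when they were chosen. All 10 were found in the table and all 10 passed the filter on low counts, among 17378 genes that did. S0 cells are the CD71- Ter119- subset of lineage-negative liver cells taken by FACS, and the labels call them erythroid precursors. The WT group held 4 libraries from wild type embryos and the DKO group 4 libraries from embryos lacking both Vps13a and Vps13c, all at E12.5. The sources describe mice kept on C57BL/6J, a Vps13a tm1d allele made with FLP and β-actin-Cre, and a constitutive Vps13c deletion. VPS13A and VPS13C are bridge-like proteins that carry lipids between organelle membranes. DKO embryos were described as coming from intercrosses of parents that all lacked Vps13c, which yield no wild type littermate, so litter and genotype cannot be told apart. The sources used here do not say that each library came from a separate embryo, so p-values measure the spread between libraries.

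An imprinted gene is transcribed mainly from the copy inherited from one parent, because the copies carry different DNA methylation. Paternally expressed genes often favour fetal growth and maternally expressed genes often restrain it. Igf2 encodes the fetal growth factor IGF2, Igf2r the receptor that clears IGF2 to lysosomes, and Grb10 an adaptor that damps insulin and IGF receptor signalling. H19 is a long noncoding RNA that shares enhancers with Igf2, and Dlk1 and Meg3 form a similar pair of a NOTCH-like membrane protein and a noncoding RNA. Cdkn1c encodes the cell cycle inhibitor p57, Plagl1 the zinc finger factor ZAC1, Peg3 a large zinc finger protein and Mest a hydrolase-like membrane protein. Fetal hepatoblasts and embryonic mesenchyme are known for high levels of many of these genes, and blood stem cells also use several of them.

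Total counts ran from 42114489 to 50886469 in WT and from 36981439 to 42587815 in DKO. Vps13a, a deleted gene, fell in DKO (log2 fold change -1.29, adjusted p = 0.00247 by the quasi-likelihood test of edgeR). Vps13c transcript did not pass the test (log2 fold change 0.49, adjusted p = 0.182). Xist, the noncoding RNA of the inactive X chromosome, was at 18029 to 27043 normalized counts in DKO replicates 1, 2 and 4 and at 62.3 in DKO replicate 3, with 0 to 30.1 in WT. The Y-linked gene Ddx3y was at 2911 to 3354 in WT and 2516 in DKO replicate 3, against 9.40 to 41.0 in the other DKO libraries. Sex-linked transcripts therefore split the libraries almost as genotype does. A fit with a term for them is given below. Erythroid markers summed to 65267 to 108730 normalized counts in WT and 49307 to 125060 in DKO, so transcripts of the labelled lineage were present in every library. Transcripts of other liver cells were present too. The 16 hepatoblast markers, led by Afp, summed to 715640 to 970070 in WT and 207730 to 806370 in DKO, and the 13 mesenchyme markers to 2560 to 7983 in WT and 19034 to 66207 in DKO. In bulk libraries, fewer cells of a type and less RNA per cell cannot be told apart.

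4 of the 10 imprinted genes were higher in DKO: Plagl1, Mest, Cdkn1c and Peg3, with 9.32, 6.09, 2.82 and 2.05 times the WT mean. A gene was called when the adjusted p was under 0.05 and the log2 fold change was beyond 1 in size. By this rule 6.19% of all tested genes were called higher and 2.43% lower. With genotype as the one term, none of the 10 was called lower by edgeR or DESeq2, and 0 had an unadjusted p under 0.05 in that direction by either. In the same 4 genes every DKO library lay above every WT library, an order found in 13.5% of all tested genes. None of the 10 had every DKO library below every WT library, an order found in 14.6% of tested genes. With the adjusted p alone, 10.7% of tested genes passed as higher and 10.8% as lower, and the same 4 of the 10 passed. The median log2 fold change was 0.42 over the 10 genes and 0.03 over all tested genes. Of the paternally expressed genes 3 of 5 were called higher (median 1.03), and of the maternally expressed genes 1 of 5 (median 0.40).

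**Figure D1:**
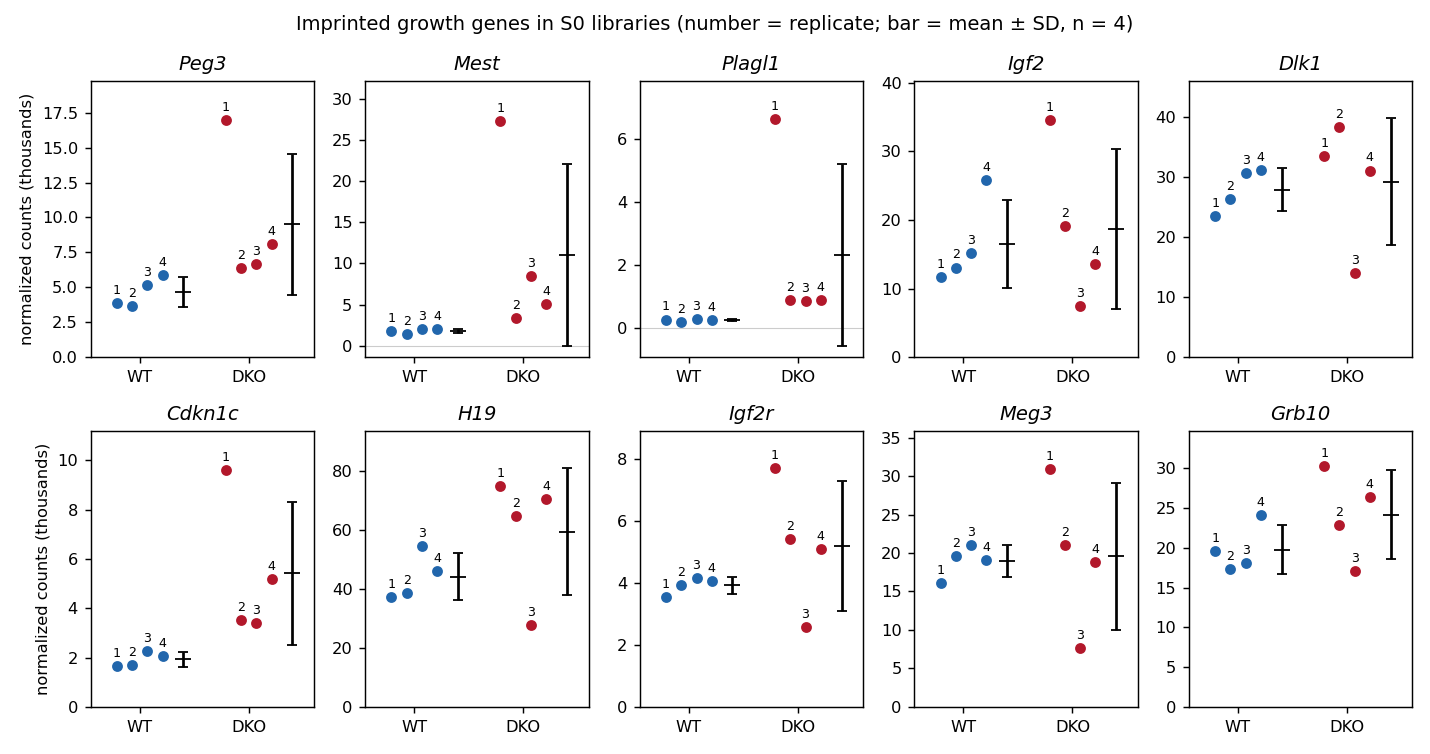
Normalized counts of each of the 10 imprinted genes (vertical axes, linear) in the 4 WT and 4 DKO libraries, with points for libraries and bars for the group mean ± SD (n = 4). Every DKO point lies above every WT point for Peg3, Mest, Plagl1 and Cdkn1c, and DKO replicate 1 is far above the rest for Plagl1, at 6650.

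Plagl1 (ENSMUSG00000019817.18, chr10:13060504-13131694 on the plus strand of GRCm38) encodes a factor that can halt the cell cycle and that regulates other imprinted genes. Normalized counts, which are counts rescaled to a common library size, were 261, 187, 286 and 260 in WT replicates 1 to 4. They were 6650, 892, 839 and 872 in DKO replicates 1 to 4. The WT libraries lay close together, 3 DKO libraries lay close together well above them, and DKO replicate 1 stood far above both. The fitted difference, as a log2 fold change, was 3.22 ± 0.72 (SE, n = 4 per group, adjusted p = 0.0141 by edgeR). Without DKO replicate 1 it was 1.81, and the call remained with each library left out in turn.

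Mest (ENSMUSG00000051855.15, chr6:30723547-30748465, plus strand) is widely used as a marker of embryonic mesoderm. Its normalized counts were 1754, 1444, 2008 and 2047 in WT. In DKO they were 27319, 3395, 8408 and 5009. The groups did not overlap, and the DKO libraries spread over an 8.05-fold range against a much narrower one in WT. Mest had a log2 fold change of 2.61 ± 0.58 (SE, n = 4 per group, adjusted p = 0.0144 by edgeR). Without DKO replicate 1 it was 1.63, and without WT replicate 1 its adjusted p by edgeR was 0.0513. The 3′ end of Mest overlaps Copg2 on the opposite strand, and Copg2 was lower in DKO (log2 fold change -0.28, adjusted p = 0.0415 by edgeR, not called).

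Cdkn1c (ENSMUSG00000037664.13, chr7:143458339-143461050, minus strand) was the 1 called gene that is expressed from the maternal copy. Its p57 product holds cells, blood stem cells among them, out of the cell cycle. Normalized counts were 1646, 1718, 2267 and 2074 in WT. In DKO they were 9604, 3522, 3400 and 5176. Every DKO library was above the highest WT library, and DKO replicate 1 was again the highest. Cdkn1c had a log2 fold change of 1.49 ± 0.31 (SE, n = 4 per group, adjusted p = 0.0114 by edgeR), and it ran from 1.07 to 1.67 with each library left out.

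Peg3 (ENSMUSG00000002265.16, chr7:6703892-6730431, minus strand) had the smallest change of the 4. Normalized counts were 3866, 3666, 5175 and 5899 in WT. In DKO they were 16979, 6366, 6636 and 8093. The highest WT library and the lowest DKO library lay close to each other, and DKO replicate 1 stood apart. Peg3 had a log2 fold change of 1.03 ± 0.31 (SE, n = 4 per group, adjusted p = 0.0430 by edgeR). Without DKO replicate 1 it was 0.60 (adjusted p = 0.0296 by edgeR), under the size needed for a call. The adjusted p of Peg3 was over 0.05 in 5 of the 8 fits with 1 library left out, at most 0.118.

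The exact two-sided permutation test on log2 library-scaled counts gave p = 0.0286 for each of Plagl1, Mest, Cdkn1c and Peg3. This is the smallest value that the 70 arrangements of 4 against 4 libraries allow. Any gene whose groups do not overlap receives it, so it restates that order and adds no support. Among all tested genes 13.5% had every DKO library above every WT library and 14.6% every DKO library below. In a fit with a term for the sex-linked transcripts none of the 4 was called, with log2 fold changes of 1.76 for Plagl1, 2.21 for Mest, 0.82 for Cdkn1c and 0.51 for Peg3. In that fit the genotype difference is that of DKO replicate 3 alone from the WT libraries, since no other DKO library had low Xist.

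**Figure D2:**
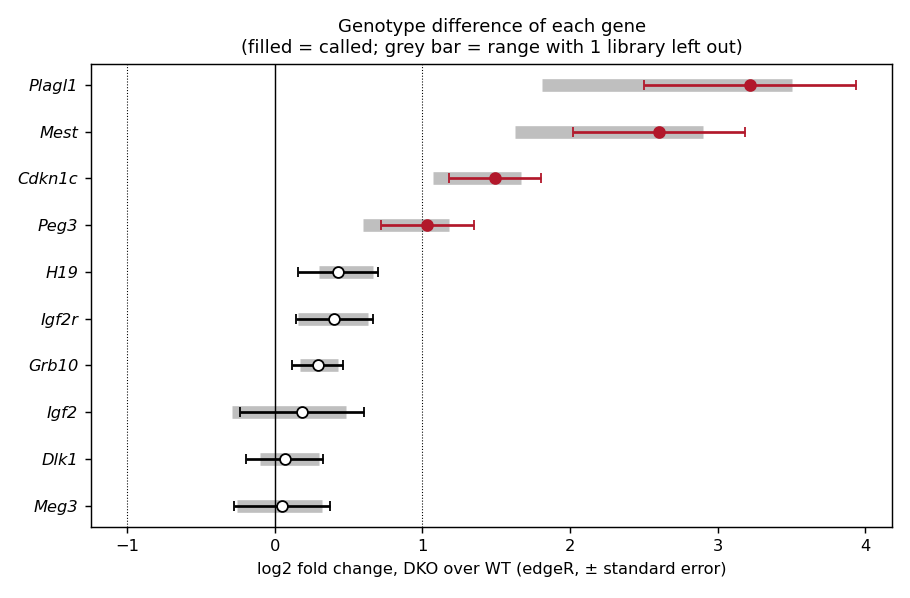
Log2 fold change of DKO over WT for each of the 10 imprinted genes (horizontal axis), with the SE from edgeR as bars and the range with 1 library left out in grey. Filled points are called genes. The changes run from 0.05 for Meg3 to 3.22 for Plagl1, and the 4 called genes lie beyond 1.

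Promoter sequences of the called genes are shown because these 4 carry the difference between groups, and Plagl1, Mest and Peg3 have entries in the RefSeq promoter table of GRCm38.p6. Each window holds 250 bases before and 50 bases after an annotated start, and where a gene has several starts 1 is shown. Capitals mark GC boxes (GGGCGG or its reverse complement) and CCAAT boxes (CCAAT or its reverse complement). The windows, 5′ to 3′ on the strand of the gene, are Plagl1 at chr10:13090582-13090881, Mest at chr6:30737800-30738099 and Peg3 at chr7:6730370-6730669.
Plagl1: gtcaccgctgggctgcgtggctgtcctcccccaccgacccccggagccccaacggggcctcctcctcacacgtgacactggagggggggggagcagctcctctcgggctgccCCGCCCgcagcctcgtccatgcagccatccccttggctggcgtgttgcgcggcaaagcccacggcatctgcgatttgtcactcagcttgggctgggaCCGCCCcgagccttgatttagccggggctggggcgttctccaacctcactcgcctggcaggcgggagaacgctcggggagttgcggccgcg
Mest: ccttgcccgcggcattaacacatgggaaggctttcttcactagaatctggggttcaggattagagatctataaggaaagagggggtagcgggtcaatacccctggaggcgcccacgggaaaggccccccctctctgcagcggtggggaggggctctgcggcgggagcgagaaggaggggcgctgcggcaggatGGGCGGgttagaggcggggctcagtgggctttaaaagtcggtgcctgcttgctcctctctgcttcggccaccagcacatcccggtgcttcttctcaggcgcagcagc
Peg3: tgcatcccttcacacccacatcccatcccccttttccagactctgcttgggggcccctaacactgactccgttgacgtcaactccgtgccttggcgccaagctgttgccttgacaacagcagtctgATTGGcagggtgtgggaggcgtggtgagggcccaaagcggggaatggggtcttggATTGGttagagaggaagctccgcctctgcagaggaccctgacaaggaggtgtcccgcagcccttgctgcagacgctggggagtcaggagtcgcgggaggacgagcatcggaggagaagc

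The Plagl1 window held 2 GC boxes, the Mest window 1 and the Peg3 window 0. The Peg3 window held 2 CCAAT boxes and the others 0. None of the 3 windows held TATAAA on either strand. Among the 32851 promoter windows of the table, 35.7% held a GC box, 37.4% a CCAAT box and 13.6% TATAAA. CpG dinucleotides are the sites of the methylation that marks imprinted regions. They numbered 26 for Plagl1, 17 for Mest and 13 for Peg3, against a median of 7 over all windows. Of all windows 83.1% had fewer CpG than the Plagl1 window, 68.6% fewer than the Mest window and 62.1% fewer than the Peg3 window. A second Mest start, at chr6:30733256-30733555, had 8 CpG and 1 GC box. The Mest window printed above was picked after the CpG counts were known. These letters describe the windows, and methylation was not measured here.

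H19 and Igf2, neighbours on chromosome 7, were not called. H19 (ENSMUSG00000000031.15, chr7:142575529-142578143, minus strand) was at 37386, 38587, 54676 and 46026 normalized counts in WT. The DKO libraries had 74882, 64684, 27850 and 70334. DKO replicates 1, 2 and 4 lay above every WT library and DKO replicate 3 below every one, so the groups overlapped. H19 had a log2 fold change of 0.43 ± 0.27 (SE, adjusted p = 0.289 by edgeR), and without DKO replicate 3 it was 0.67 (adjusted p = 0.0129 by edgeR).

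Igf2 (ENSMUSG00000048583.16, chr7:142650766-142666816, minus strand) was at 11686, 13064, 15149 and 25828 in WT. Igf2 in DKO was at 34536, 19104, 7412 and 13572. The highest and the lowest of the 8 libraries were both DKO. The log2 fold change was 0.18 ± 0.42 (SE, adjusted p = 0.795 by edgeR), and its sign changed with which library was left out, from -0.29 to 0.48. The antisense gene Igf2os overlaps Igf2 and had 16 to 115 counts.

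Dlk1 and Meg3, the pair on chromosome 12, had nearly equal group means. Dlk1 (ENSMUSG00000040856.17, chr12:109452823-109463336, plus strand), which marks fetal hepatoblasts, was at 23554, 26460, 30649 and 31164 in WT. Dlk1 in DKO was at 33495, 38351, 14037 and 31136. DKO replicate 3 was the lowest library and DKO replicate 2 the highest, with the WT libraries between. The log2 fold change of Dlk1 was 0.07 ± 0.26 (SE, adjusted p = 0.885 by edgeR), and without DKO replicate 2 it was -0.097.

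Meg3 (ENSMUSG00000021268.17, chr12:109541001-109571726, plus strand), the noncoding RNA of the maternal copy, was at 16145, 19594, 21028 and 19112 in WT. In DKO it was at 30885, 21014, 7614 and 18894. DKO replicate 1 was the highest and DKO replicate 3 the lowest. The log2 fold change of Meg3 was 0.05 ± 0.33 (SE, adjusted p = 0.936 by edgeR), and without DKO replicate 1 it was -0.25. In the fit with the term for sex-linked transcripts, which sets DKO replicate 3 alone against WT, Meg3 was called lower (-1.32, adjusted p = 0.0273 by edgeR). Dlk1 in that fit had -0.99 (adjusted p = 0.0213 by edgeR), just short of the size for a call.

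Igf2r (ENSMUSG00000023830.13, chr17:12682406-12769664, minus strand) had the tightest WT values, at 3543, 3948, 4173 and 4063. In DKO it was at 7713, 5426, 2570 and 5096. As with H19, 3 DKO libraries lay above all WT libraries and DKO replicate 3 below all of them. The log2 fold change was 0.40 ± 0.26 (SE, adjusted p = 0.300 by edgeR), and without DKO replicate 3 it was 0.63 (adjusted p = 0.0178 by edgeR).

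Grb10 (ENSMUSG00000020176.17, chr11:11930508-12038683, minus strand) was at 19637, 17294, 18053 and 24154 in WT. In DKO it was at 30347, 22899, 17147 and 26394. The groups overlapped, and Grb10 had the narrowest DKO range of the 10 genes, 1.77-fold from lowest to highest. The log2 fold change was 0.29 ± 0.17 (SE, adjusted p = 0.258 by edgeR), and without DKO replicate 3 it was 0.43 (adjusted p = 0.0485 by edgeR).

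In the fit with the sex-linked term, which sets DKO replicate 3 alone against WT, all 6 genes not called had a negative log2 fold change. DKO replicate 3 was the lowest of the 8 libraries for each of them, so the sign was fixed by that library. Beside Meg3 and Dlk1, the log2 fold changes were -1.15 for Igf2, -0.67 for H19, -0.61 for Igf2r and -0.21 for Grb10.

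The 10 genes varied more among DKO than among WT libraries, and this was not particular to them. Over all tested genes, the mean chi-square per gene between libraries of a group was 18.1 to 41.5 in WT and 55.4 to 127.9 in DKO. From the lowest to the highest library the range was 1.18-fold for Igf2r to 2.21-fold for Igf2 in WT. In DKO it was 1.77-fold for Grb10 to 8.05-fold for Mest. DKO replicate 1 was the highest of the 8 libraries for 9 genes, all but Dlk1. DKO replicate 3 was the lowest for the 6 genes not called, Igf2, Dlk1, H19, Igf2r, Meg3 and Grb10.

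Marker transcripts of other cells were set beside the imprinted genes. Hepatoblast markers summed to 715640, 773640, 970070 and 941370 normalized counts in WT and to 501790, 806370, 207730 and 709730 in DKO. DKO replicate 3 was thus the lowest for these markers too. Mesenchyme markers summed to 4408, 2560, 7983 and 5979 in WT and to 66207, 19034, 22764 and 29719 in DKO. DKO replicate 1 was the highest for these markers, as it was for 9 of the 10 imprinted genes, whether called or not, while its hepatoblast sum was below that of every WT library. Neural markers summed to 5891 in DKO replicate 1 and to 480 to 634 in the other DKO libraries, against 155 to 338 in WT. Of the markers found in the table none was at 0 in all libraries. Of the mesenchyme markers 11 of 13 were called higher (median log2 fold change 2.90), of the mesothelium markers 5 of 6 tested (3.25) and of the skeletal muscle markers 3 of 8 (2.36). Of the hepatoblast markers 0 of 16 were called higher and 1, Cdh1, lower (median -0.77). Beside these counts, 6.19% of all tested genes were called higher and 2.43% lower. The part of these transcripts in the levels of the imprinted genes was not tested.

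Scaled per 1000 hepatoblast marker counts, 9 of the 10 genes had every DKO library above every WT library, Igf2 being the exception. Scaled per 1000 mesenchyme marker counts, none of the 10 did, and 8 had every DKO library below every WT library. Mest and Plagl1 overlapped on the mesenchyme scale, with 252 to 564 in WT and 169 to 413 in DKO for Mest, and 35.8 to 72.9 in WT and 29.4 to 100.4 in DKO for Plagl1. These scalings were chosen after the data were seen, and they give values with no test. The divisors themselves differed between groups. Hepatoblast sums averaged 850180 in WT and 556400 in DKO, and mesenchyme sums 5232 and 34431. A gene with equal counts in both groups would tend to rise on the hepatoblast scale and fall on the mesenchyme scale. The share of all tested genes with such an order was not computed, so these counts describe the divisors as well as the imprinted genes.

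**Figure D3:**
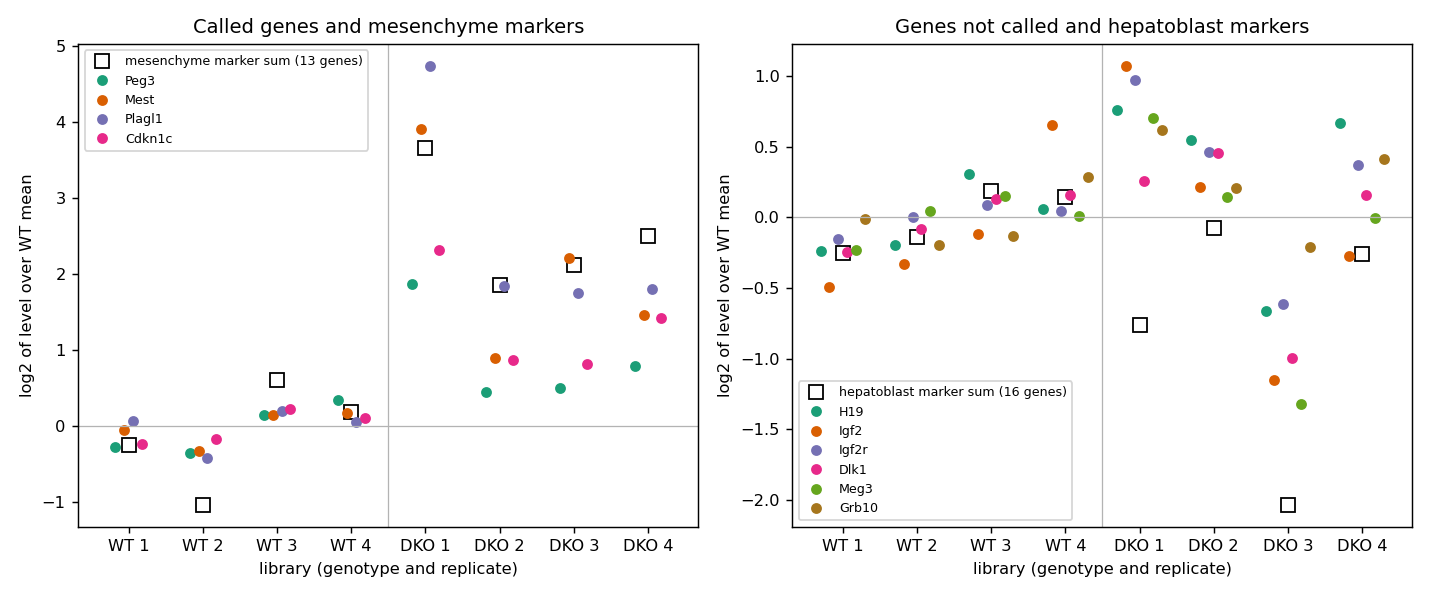
Log2 of each level over the WT mean (vertical axes) in the 8 libraries, for the 4 called genes with the summed mesenchyme markers (left) and the 6 other genes with the summed hepatoblast markers (right). DKO replicate 1 is highest for the mesenchyme sum and for 9 of the 10 genes but low for the hepatoblast sum (-0.76), and DKO replicate 3 is lowest for the 6 other genes and the hepatoblast sum. Because a low value in DKO replicate 3 works against a call of higher expression, this split of the genes is partly built in.

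Ratios within pairs of linked function did not separate the groups. The H19 to Igf2 ratio was 3.20, 2.95, 3.61 and 1.78 in WT and 2.17, 3.39, 3.76 and 5.18 in DKO. The Dlk1 to Meg3 ratio was 1.46, 1.35, 1.46 and 1.63 in WT and 1.08, 1.83, 1.84 and 1.65 in DKO. The Igf2 to Igf2r ratio was 3.30, 3.31, 3.63 and 6.36 in WT and 4.48, 3.52, 2.88 and 2.66 in DKO. All 3 ratios overlapped between groups. On the log2 scale the DKO mean minus the WT mean was 0.31 for H19 to Igf2 (exact permutation p = 0.371), 0.09 for Dlk1 to Meg3 (exact permutation p = 0.6) and -0.26 for Igf2 to Igf2r (exact permutation p = 0.429). Adjusted over the 3 ratios each exact permutation p was 0.6. DKO replicate 3, which was low for H19 and Igf2 alike, had an H19 to Igf2 ratio within the range of the other libraries.

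Per kilobase of exon, H19 was the most abundant of the 10 in WT, at 17955 ± 3244 normalized counts per kb (SD, n = 4). Dlk1 (4942 ± 639), Igf2 (2871 ± 1123) and Grb10 (2177 ± 338) followed on the same per kb scale. Meg3 (1049 ± 113) and Cdkn1c (945 ± 144) came next, then Mest (460 ± 70.5), Igf2r (422 ± 29.6), Peg3 (349 ± 80.1) and, far below, Plagl1 (31.7 ± 5.47). Of the neighbours in this order Dlk1 and Igf2, Igf2 and Grb10, Meg3 and Cdkn1c, Mest and Igf2r, and Igf2r and Peg3 overlapped between libraries. In DKO the first 3 places were again H19, Dlk1 and Igf2. Mest (2797 ± 2803), Grb10 (2662 ± 616) and Cdkn1c (2661 ± 1423) followed close together, and Plagl1 was still the lowest at 296 ± 370. The place of Mest, and that of Igf2 above Grb10, rest on DKO replicate 1, at 6925 per kb for Mest and 6035 for Igf2. Without that library the DKO means were 2437 for Grb10, 2335 for Igf2, 1978 for Cdkn1c and 1421 for Mest. By mean normalized count H19 exceeded 99.4% of all tested genes in WT and Plagl1 exceeded 41.0%. In DKO, Plagl1 exceeded 76.6% of tested genes and Mest 95.9%, against 70.3% for Mest in WT.

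Other imprinted genes in the same chromosome clusters were mostly not called. Of 13 tested, 1 was called higher and 1 lower, with a median log2 fold change of 0.25. All tested genes had 6.19% called higher and 2.43% lower. The gene called higher was Zim1, a zinc finger neighbour of Peg3, at 118 ± 38.6 in WT and 350 ± 207 in DKO (log2 fold change 1.56, adjusted p = 0.0293 by edgeR). The gene called lower was Slc22a3, an organic cation transporter beside Igf2r, at 3735 ± 367 in WT and 1739 ± 703 in DKO (log2 fold change -1.10, adjusted p = 0.0162 by edgeR). The call of Zim1 was lost in 5 of the 8 fits with 1 library left out, without any 1 WT library or DKO replicate 4. The call of Slc22a3 was lost in 3, without WT replicate 2, DKO replicate 1 or DKO replicate 4. The abundant noncoding RNAs did not pass the test. Kcnq1ot1, transcribed across the Cdkn1c domain, averaged 6537 in WT and 7783 in DKO, and Rian, downstream of Meg3, averaged 4660 and 5212. Airn, which overlaps Igf2r in antisense, had 42 to 532 counts and an adjusted p of 0.134 by edgeR.

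Of 25 tested imprinted genes outside these clusters, 6 were called higher and 1 lower, with a median log2 fold change of 0.27. The shares over all tested genes were 6.19% higher and 2.43% lower. Nnat, a small membrane proteolipid of developing brain, rose from 467 ± 276 to 6588 ± 6810 (log2 fold change 3.82, adjusted p = 0.00832 by edgeR). Asb4, an E3 ligase adaptor, rose from 339 ± 62.3 to 1612 ± 500 (2.25, adjusted p = 0.000941 by edgeR). Peg10, a retrotransposon-derived gene, rose from 1534 ± 165 to 3242 ± 1253 (1.08, adjusted p = 0.0159 by edgeR). Dcn, a collagen-binding proteoglycan, rose from 169 ± 16.7 to 807 ± 251 (2.25, adjusted p = 0.00124 by edgeR). Zdbf2 and Nespas were the others called higher. Nnat was at 16746 in DKO replicate 1 and 2289 to 4039 in the other DKO libraries, and without DKO replicate 1 its log2 fold change was 2.78, with that of Zdbf2 at 1.97. The call of Peg10 was lost without WT replicate 1, WT replicate 2 or DKO replicate 1. The 1 called lower was Peg13, a noncoding RNA within Trappc9, which fell from 1317 ± 161 to 584 ± 147 (-1.17, adjusted p = 0.00504 by edgeR). Among the most abundant of this list, Gnas, the stimulatory G protein subunit, had a log2 fold change of 0.72 (adjusted p = 0.00382 by edgeR, not called), while H13 and Ube3a did not pass the test.

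The genes around IGF2 action fell into groups with different counts. Of 10 IGF binding proteins and their proteases 5 were called higher and 0 lower, with a median log2 fold change of 1.85. Over all tested genes 6.19% were called higher and 2.43% lower. Every DKO library lay above every WT library for 5 of the 10 and below for 1, Igfals (-1.09, adjusted p = 0.0763 by edgeR, not called). Igfbp1, a liver-secreted carrier of IGFs, rose from 2017 ± 747 to 7827 ± 3451 (1.96, adjusted p = 0.0068 by edgeR). Igfbp2, Igfbp3, Igfbp5 and the protease Pappa also rose, Pappa from 8.35 in WT, near the floor, to 95.4 in DKO. Leaving out DKO replicate 1 gave log2 fold changes of 2.55 for Igfbp2 and 1.97 for Igfbp3, against 3.23 and 2.74 with all libraries, and without WT replicate 3 that of Igfbp5 moved by 0.924 from 3.81. The call of Igfbp3 was lost without WT replicate 1 or WT replicate 4. Igfbp4, the most abundant of them, was at 8504 ± 451 in WT and 8121 ± 1072 in DKO (adjusted p = 0.682 by edgeR). Of the other ligands and receptors 1 of 3 tested was called. This was Igf1, the ligand that shares a receptor with IGF2, which rose from 282 ± 182 to 2940 ± 2395 (3.38, adjusted p = 0.0118 by edgeR). Igf1 was at 6251 in DKO replicate 1 and 803 to 3056 in the other DKO libraries, and without DKO replicate 1 its log2 fold change was 2.71. The receptors Igf1r and Insr did not pass the test. For Insr every DKO library lay below every WT library (-0.28, adjusted p = 0.137 by edgeR), an order found in 14.6% of all tested genes. Igf1r averaged 4987 in WT and 4576 in DKO (adjusted p = 0.510 by edgeR).

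Downstream of the receptor, 1 of 19 signalling genes was called, beside 6.19% of all tested genes called higher and 2.43% lower. This was Irs2, an adaptor of insulin and IGF receptors, at 772 ± 153 in WT and 1669 ± 397 in DKO (1.11, adjusted p = 0.00598 by edgeR), a call lost without DKO replicate 4. The most abundant of this list, Rps6kb1, Grb2 and Akt2, did not pass the test. Pik3r1 passed the adjusted p alone (-0.80, adjusted p = 0.00366 by edgeR) and was not called. For Pik3r1 and Rps6kb1 every DKO library lay below every WT library, an order found in 14.6% of all tested genes. Of the 5 genes of the Igf2bp and Lin28 families, RNA-binding proteins that act on Igf2 and H19 RNA, 0 were called in either direction by edgeR. Igf2bp3 passed the adjusted p alone (-0.48, adjusted p = 0.0075 by edgeR), and Igf2bp1 and Igf2bp2 did not pass it. Of the other cyclin-dependent kinase inhibitors 1 of 4 tested was called, Cdkn1a, which encodes p21 and rose from 734 ± 78.8 to 1606 ± 547 (1.13, adjusted p = 0.00953 by edgeR), a call lost without DKO replicate 4. Cdkn2d and Cdkn1b did not pass the test. Of 12 tested genes that set or keep imprints 1 was called higher and 1 lower. Dnmt3b, a de novo DNA methyltransferase, fell from 9790 ± 454 to 4634 ± 1705 (-1.08, adjusted p = 0.0126 by edgeR), a call lost without DKO replicate 1 or DKO replicate 4. Zfp57, which protects imprinted methylation, had a log2 fold change of 2.19 (adjusted p = 0.0321 by edgeR) with groups that overlapped. Leaving out DKO replicate 1 took Zfp57 to 1.35, and its call was lost without WT replicate 1, WT replicate 2 or WT replicate 4. The maintenance enzyme Dnmt1 had -0.66 (adjusted p = 0.00357 by edgeR, not called), with every DKO library below every WT library. Its partner Uhrf1 had -0.51 (adjusted p = 0.0113 by edgeR, not called), also with no overlap, and Trim28 did not pass the test.

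**Figure D4:**
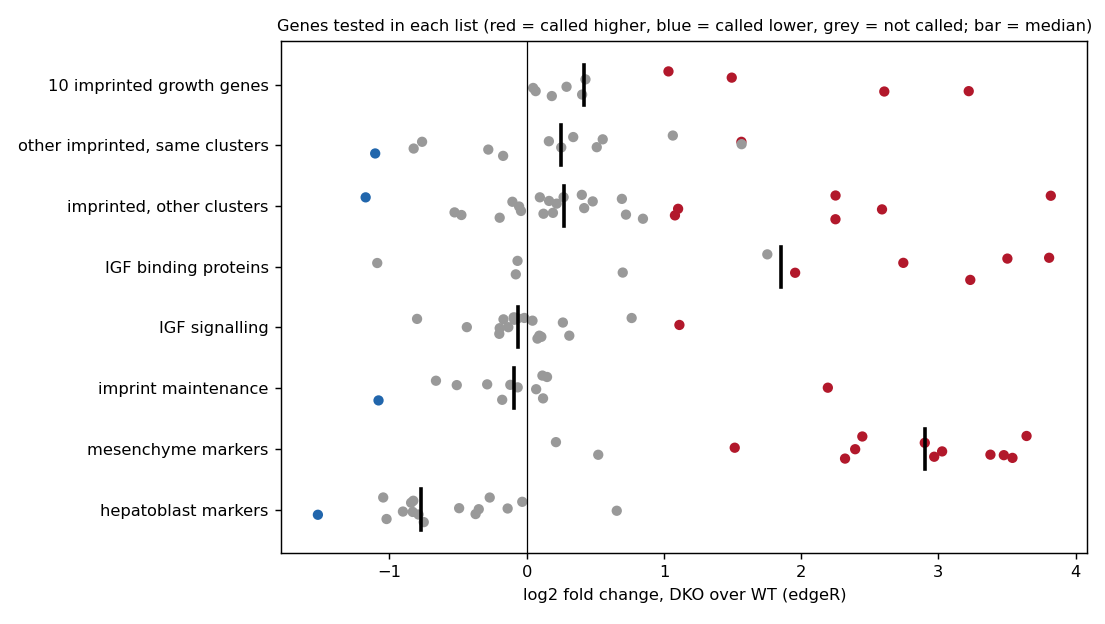
Log2 fold change of DKO over WT for the tested genes of each list, 1 point a gene, with the list median as a bar, genes called higher in red and genes called lower in blue. The IGF binding protein and mesenchyme lists have medians of 1.85 and 2.90, and the 10 imprinted genes 0.42.

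The genes most like each imprinted gene were found among 12338 candidates by the root mean square difference of log2 levels over the 8 libraries, after each gene was set to its own WT mean. Candidates averaged at least 100 normalized counts, and a pseudocount of 1 was added. Plagl1 was closest to Meis2 (0.17), Nr2f2 (0.24) and Foxf1 (0.27), transcription factors of embryonic mesenchyme. Mest was closest to Hotairm1 (0.32), Zfp462 (0.32) and Zfhx4 (0.32). Cdkn1c was closest to Hes1 (0.15) and Postn (0.16), and Peg3 to Palld (0.14) and Mex3b (0.16). H19 was closest to Kif1c (0.12), and Igf2 to Rgl1 (0.17). The likeness is a description over 8 libraries of 2 genotypes that also differ in depth and in marker sums, and it carries no test.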

How the data were processed

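PolyA RNA of sorted S0 cells was made into cDNA by template switching (NEBNext Single Cell/Low Input kit), after a check of RNA integrity. The authors trimmed reads with fastp 0.21.0, aligned them with HISAT2 2.2.1 to mm10, removed low mapping quality alignments, and ran StringTie 1.3.3b with GENCODE annotation and its count script, per the submitters' processing notes and the methods. The deposited values are raw gene counts, which that script derives from coverage and read length, not pooled. The strand setting of counting is not given in the sources used here, so reads of overlapping antisense genes cannot be told apart.

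Groups came from the genotype in the labels, with 4 libraries each. Of 52636 identifiers 52489 matched a symbol in the GENCODE M21 annotation of GRCm38, 49121 of them with the same version. Counts were filtered with filterByExpr, scaled by TMM and tested for all 17378 remaining genes with the robust quasi-likelihood test of edgeR 4.0.16 (R 4.3.3, limma 3.58.1), with Benjamini-Hochberg adjustment. Single values were tested by exact permutation over 70 arrangements. Normalized counts are counts over the effective library size times the mean effective size. The scripts were tested on simulated data.

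The rule for named genes took the 10 imprinted genes, the called and the 3 most abundant genes of each list, and the 5 genes most like each called gene, Igf2 and H19. Of the similar genes the closest are printed, and of the marker lists mainly sums and counts. Copg2, Airn and Igf2os, which overlap imprinted genes, were added after their values were seen, as was Pik3r1. The leave-out fits for listed genes and the per kb means without DKO replicate 1 were also added after the data were seen. The genes and lists were chosen with earlier results of these data known. Alternatives were DESeq2 1.42.0, other scalings and filters, a replicate block, a term for sex-linked transcripts, no fold change threshold, and leaving out each library. Counting error was not estimated. The 10 imprinted genes had at least 217 counts in every library, but some listed genes had few, such as Pappa with 5 to 12 in WT.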

Additional observations from a re-analysis of the deposited data

Results flagged for a closer look

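Of 26 groups of 4 libraries examined, 3 held a library far from the other 3 of its group by Dixon's criterion. Chance meets it in about 1 in 20 groups if values are normally distributed, which was not checked. Gene levels entered it as normalized counts on the linear scale, and ratios as log2 values. Plagl1 was at 6650 normalized counts in DKO replicate 1, with a gap to the next library of 0.991 of the whole DKO range. Peg3 was at 16979 in DKO replicate 1, with a gap of 0.837 of the range. The log2 Igf2 to Igf2r ratio was 2.67 in WT replicate 4, with a gap of 0.854 of the range, in the library with the highest Igf2 of WT. DKO replicate 1 also had the highest mesenchyme and neural marker sums, at 66207 and 5891, and the part of these in its Plagl1 and Peg3 levels was not tested.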

How the results depend on the processing

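Of the 10 imprinted genes 4 were called higher, and 2 to 4 with each library left out. DESeq2, no filter on low counts, at least 10 counts in every library and the replicate block gave 3 each, and scaling without TMM or by the upper quartile gave 4. In DESeq2 Plagl1 had a log2 fold change of 3.21 but neither a p nor an adjusted p, so it could not be called there. Without WT replicate 1 Plagl1 and Cdkn1c were called. The adjusted p of Peg3 was 0.0792 with no filter and 0.0504 with at least 10 counts. With the term for sex-linked transcripts, which leaves DKO replicate 3 against WT, 0 were called higher and 1, Meg3, lower. Over all genes, 1076 were called higher and 423 lower. The counts higher were 1665 by DESeq2, 613 with the replicate block, 273 with the sex-linked term and 1867 with no fold change threshold, which gave 1878 lower. With each library left out they ran from 566 to 1148 higher and from 243 to 521 lower, the lowest without WT replicate 1 and without WT replicate 4. Upper-quartile scaling moved the median log2 fold change of all genes by 0.109.

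The replicate numbers in the labels did not pair the libraries: same-numbered libraries had correlations of -0.0893, 0.0433, -0.0206 and -0.00748. With the replicate block the adjusted p of Peg3 was 0.0878 by edgeR, Dlk1 had a log2 fold change of -0.011 and Meg3 -0.098. With each library left out Dlk1 ran from -0.097 to 0.30, Meg3 from -0.25 to 0.32 and Igf2 from -0.29 to 0.48. With the sex-linked term the values were Igf2 -1.15, Dlk1 -0.99, H19 -0.67, Igf2r -0.61, Meg3 -1.32 and Grb10 -0.21. With each library left out the log2 ratio differences ran from 0.093 to 0.53 for H19 to Igf2, from 0.012 to 0.27 for Dlk1 to Meg3 and from -0.41 to -0.039 for Igf2 to Igf2r. Other than where stated above, the cause of these changes was not tested.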

Other observations

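Among relatives of Plagl1 and Dlk1, 1 of 5 tested genes was called. Notch3, a receptor of the family that DLK1 resembles, averaged 140 normalized counts in WT and 565 in DKO (log2 fold change 2.01, adjusted p = 0.0240 by edgeR). Without DKO replicate 1 it was 1.41, and the call was lost without WT replicate 1, WT replicate 2 or WT replicate 4. Notch1 had -0.87 (adjusted p = 0.0251 by edgeR) and Plagl2, a relative of Plagl1, had -0.52 (adjusted p = 0.0195 by edgeR). Neither of them was called, and Notch2 did not pass the test. Of the stem and progenitor markers 5 of 12 were called lower, among them Kit and Cd34, with a median log2 fold change of -0.98. Over all tested genes 2.43% were called lower. The call of Cd34 was lost without WT replicate 1, WT replicate 2 or WT replicate 4. The erythroid markers had a median of 0.00 with 0 of 12 called by edgeR.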
